A study of Mus musculus with 11 samples.

Results

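Voltage-gated calcium and sodium channels are the membrane proteins that carry the action potentials and the calcium entry of excitable cells. The genes described here are those whose symbol began with Cacna, Cacnb or Cacng, or with Scn followed by a number and the letter a or b. They numbered 39 of the 31659 genes in the deposited tables. They comprised 10 calcium channel alpha1 genes, 4 alpha2delta genes, 3 beta genes (Cacnb2, Cacnb3 and Cacnb4), 8 gamma genes, 10 sodium channel alpha genes and 4 sodium channel beta genes. Regions assigned to them numbered 51 of 31479 for H3K27ac, next to 20 of the genes, and 96 of 20086 for H3K27me3, next to 26 of the genes. Regions carry the gene given in the tables, mostly by nearest start, and some lie inside a neighbouring gene. Each of the 39 genes had a promoter window with an ISL1 value. No region of either mark was listed for Cacna1d, Cacnb2, Cacng8, Scn3a and Scn7a.

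An alpha1 subunit forms the pore of a calcium channel and sets whether it is of the L, P/Q, N, R or T type, while the alpha2delta and beta subunits raise the number of channels at the membrane and shape their gating. Sodium channels are built in the same way, from a pore-forming alpha subunit with beta subunits that tune it. In pancreatic endocrine cells, glucose or other stimuli depolarise the membrane, calcium enters through these channels, and hormone granules fuse with the plasma membrane. H3K27ac is a histone mark of active promoters and enhancers. H3K27me3 is the mark that Polycomb complexes place on silent or weakly active genes.

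The marks and ISL1 were mapped by CUT&Tag, where an antibody brings a transposase to a histone mark or a bound protein, in tdTomato-positive endocrine cells sorted from mouse pancreas. Isl1CKO mice carried Isl1loxP/loxP;Neurod1-cre and Control mice carried Isl1loxP/+;Neurod1-cre, so the Control cells were heterozygous for the floxed Isl1 allele and carried the same cre. Both genotypes carried the Ai14 tdTomato reporter on a C57BL/6 background, and littermates of both sexes were used. Neurod1-cre is active in the endocrine lineage as a whole, so alpha, beta and other endocrine cells entered a library together, and a change of cell types and a change within a cell type cannot be told apart. Each genotype and histone mark had 2 libraries from P9 mice, each from a separate pool of 3 to 4 pancreases. ISL1, the LIM-homeodomain factor encoded by Isl1, was profiled in Control cells at E14.5, as 1 pooled column of 2 libraries, and at P9, as 1 library.

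H3K27ac counts in regions were 681047 and 1441926 in Isl1CKO and 1307049 and 1815511 in Control. H3K27me3 counts were 2276887 and 2260039 in Isl1CKO and 1202276 and 1750706 in Control. Control replicate 2 of H3K27ac stood apart from the other 3 libraries of the mark, with correlations across regions of 0.451 to 0.497, and named H3K27ac differences are therefore also given without it. H3K27ac at the promoter of Isl1 measured 45.6 and 45.7 CPM in Isl1CKO and 63.3 and 42.8 CPM in Control, and the genotypes overlapped (log2 fold change -0.21, SE 0.48). Which part of Isl1 is removed is not given in the labels, so that value does not check the deletion. An H3K27ac promoter region was listed for 11 of 15 endocrine, 3 of 7 ductal, 1 of 10 acinar and 1 of 8 muscle markers, and for none of the 6 endothelial, 6 mesenchymal, 6 glial and 6 immune markers. Summed over regions, the acinar markers measured 406 and 383 CPM in Isl1CKO and 504 and 393 CPM in Control, and the ductal markers 354 and 289 CPM in Isl1CKO and 287 and 258 CPM in Control. Regions outside promoters were listed for 2 endothelial, 1 mesenchymal and 2 glial markers. The endothelial sums were 32.0 and 48.5 CPM in Isl1CKO and 29.3 and 98.1 CPM in Control. Mesenchymal sums were 22.8 and 16.9 against 11.6 and 33.4 CPM, and glial sums 53.3 and 42.2 against 38.6 and 65.2 CPM. Muscle sums were 114 and 118 against 81.8 and 135 CPM. These 4 lists were highest in Control replicate 2. Of 8 neuronal markers, 5 had an H3K27ac promoter region, and their summed level over regions was 493 and 444 CPM in Isl1CKO and 495 and 358 CPM in Control. Several of these neuronal markers are also active in endocrine cells, and the part of these lists in the channel values was not tested.

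Most channel promoters were listed for H3K27me3. An H3K27me3 region lay at the promoter, within 3 kb of the annotated start, of 23 of 39 channel genes (59.0%), against 13.8% of the 22332 genes with an ISL1 window. An H3K27ac promoter region was listed for 14 of 39 (35.9%), against 38.6% of all genes. Both marks were listed at the promoters of 10 channel genes (25.6%, against 5.07% of all genes), among them Cacna1b, Cacna1g, Cacna1h, Cacna2d2, Cacna2d3, Cacnb3, Cacnb4, Scn8a and Scn9a. H3K27ac alone was listed at Cacna1a, Cacna2d1, Scn3b and Scn4a. H3K27me3 alone was listed at 13 genes (33.3%, against 8.77%) and neither mark at 12 (30.8%, against 52.7%). Of the 14 channel promoters with H3K27ac, 10 also had H3K27me3 (71.4%), against 1133 of 8610 among all genes (13.2%). These shares are descriptions of the listed regions and were not tested.

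The families fell into these promoter states as follows. Of the 10 calcium channel alpha1 genes, 3 had both marks, 1 had H3K27ac alone, 4 had H3K27me3 alone and 2 had neither. All 3 alpha2delta genes with a promoter region had H3K27ac, and in 2 of them H3K27me3 was listed too. None of the 8 gamma genes had an H3K27ac promoter region, whereas 5 of them (Cacng3, Cacng4, Cacng5, Cacng6 and Cacng7) had H3K27me3. Of the 10 sodium channel alpha genes, Scn8a and Scn9a had both marks, Scn4a had H3K27ac alone, Scn1a and Scn10a were among those with H3K27me3 alone, and Scn2a, Scn3a, Scn7a and Scn11a had neither. Of the L-type alpha1 genes that are known to carry calcium current in mouse beta cells, Cacna1c had a single H3K27ac region and no H3K27me3 region, and Cacna1d had no region of either mark. The Cacna1c region was assigned by distance, 3064 bp upstream in an exon of a neighbouring gene, and measured 21.3 and 51.3 CPM in Isl1CKO and 30.9 and 16.4 CPM in Control, so the genotypes overlapped. An unlisted promoter means that no region was listed there, not that the mark was absent.

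**Figure D1:**
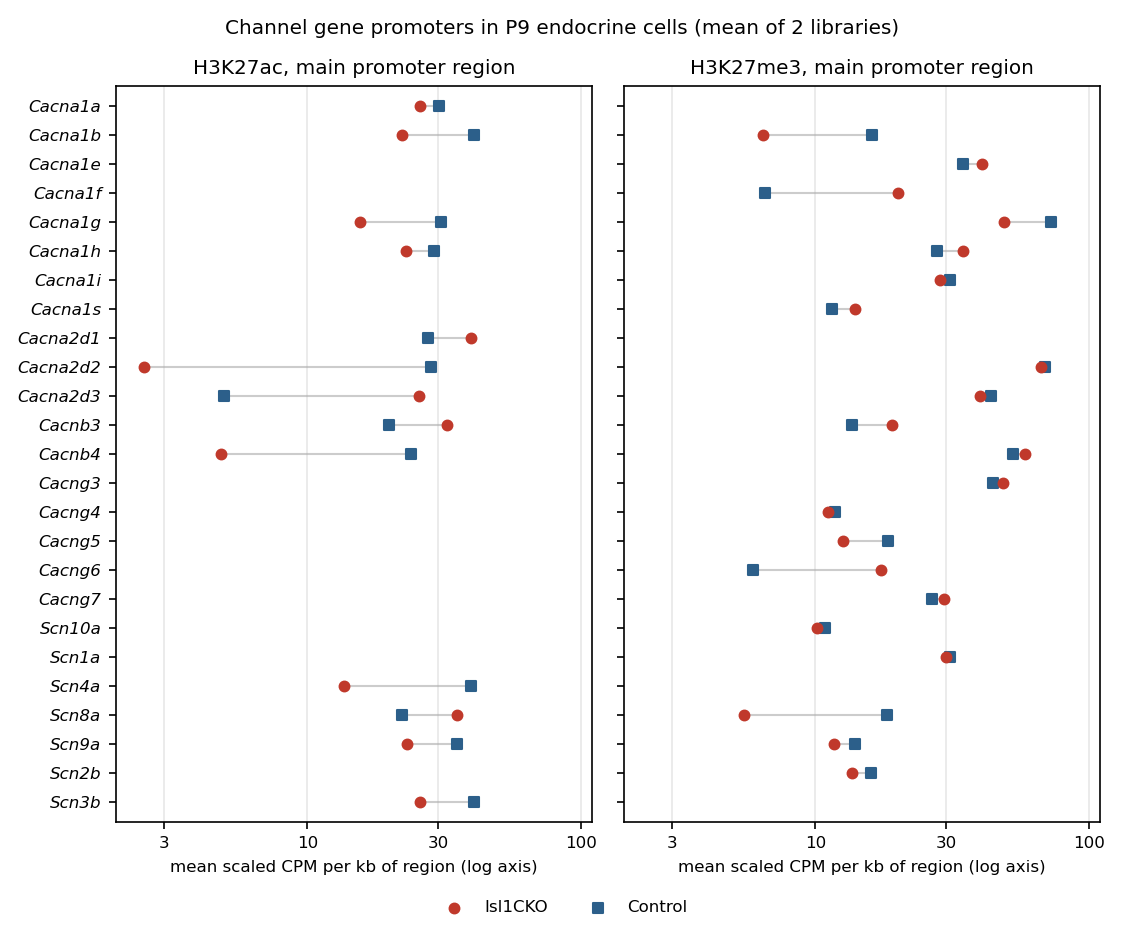
Mean scaled CPM per kb (log axis) of the strongest promoter region of channel genes in Isl1CKO (red circles) and Control (blue squares), 2 libraries each, for H3K27ac on the left and H3K27me3 on the right. Gamma subunit genes have points on the right only, and Cacna2d2, Cacna2d3 and Cacnb4 have the widest gaps on the left.

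Base composition was read for each promoter class. RefSeq promoter windows (GRCm38.p6, 250 bases before to 50 after the start) were found for 29 of the 39 genes, and since the tables use another build, windows were matched by gene and not by position. Where a gene had several windows, the one with the most CG dinucleotides was taken. Channel genes with both marks had a median of 38 CG dinucleotides per window (7 genes, from 9 in Scn9a to 43), against 21 for all genes in that class. Channel genes with H3K27me3 alone had a median of 9 (11 genes), against 14 for all genes in that class. Those with neither mark had a median of 20 (9 genes), against 5, and the 2 with H3K27ac alone held 4 and 42, against a median of 22. The 250 bases before the start of 3 CG-rich channel genes with both marks and of 1 CG-poor gene with H3K27me3 alone are given as examples of the range, on the gene's strand with each CG in capitals. Cacna2d3 (chr14:29721865-29722114, minus strand), Scn8a (chr15:100870395-100870644, plus strand) and Cacna1b (chr2:24763153-24763402, minus strand) hold 30, 30 and 29 CG dinucleotides, and Scn1a (chr2:66440838-66441087, minus strand) holds 4.
Cacna2d3: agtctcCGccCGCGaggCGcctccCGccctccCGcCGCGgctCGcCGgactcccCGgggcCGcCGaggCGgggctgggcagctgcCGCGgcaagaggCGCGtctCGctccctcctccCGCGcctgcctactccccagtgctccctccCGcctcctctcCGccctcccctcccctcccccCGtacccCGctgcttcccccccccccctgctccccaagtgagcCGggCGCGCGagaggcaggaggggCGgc
Scn8a: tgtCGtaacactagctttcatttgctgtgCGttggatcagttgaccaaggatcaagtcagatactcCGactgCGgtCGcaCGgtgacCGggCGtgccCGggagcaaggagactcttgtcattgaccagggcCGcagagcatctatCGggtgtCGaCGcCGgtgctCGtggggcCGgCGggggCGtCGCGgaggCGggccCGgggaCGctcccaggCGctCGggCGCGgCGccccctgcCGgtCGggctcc
Cacna1b: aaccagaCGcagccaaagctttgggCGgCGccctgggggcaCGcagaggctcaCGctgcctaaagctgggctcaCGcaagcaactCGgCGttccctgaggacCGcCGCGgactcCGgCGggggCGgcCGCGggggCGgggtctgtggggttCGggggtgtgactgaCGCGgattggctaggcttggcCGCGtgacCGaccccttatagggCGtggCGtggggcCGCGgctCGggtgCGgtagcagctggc
Scn1a: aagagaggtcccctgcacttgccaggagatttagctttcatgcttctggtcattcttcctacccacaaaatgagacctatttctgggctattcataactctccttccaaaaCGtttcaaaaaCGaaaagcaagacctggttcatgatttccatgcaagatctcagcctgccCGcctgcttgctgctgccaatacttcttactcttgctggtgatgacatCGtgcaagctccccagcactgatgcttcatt

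No channel region passed the test between genotypes for either mark. With edgeR's quasi-likelihood test and Benjamini-Hochberg adjustment over all regions, 0 of 48 channel H3K27ac regions were called at an adjusted p below 0.05, and the background was 0.0% of 30036 regions. At an unadjusted p below 0.05, 4 channel regions measured higher and 3 lower, against 2.71% and 3.12% of all regions. Both Isl1CKO libraries lay above both Control libraries in 11 of the 48 (22.9%, against 18.1% of all regions) and below them in 7 (14.6%, against 19.4%). The median H3K27ac log2 fold change of the channel regions was -0.08, and that of all regions was -0.03. DESeq2 called 29 H3K27ac regions over the table (0.0921%) and 0 of the channel regions. Without Control replicate 1, which leaves 1 Control library, the H3K27ac log2 fold change was 2.24 at a Cacna1h intron region and 1.20 at the Cacnb3 3′ UTR region.

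For H3K27me3, 0 of 94 channel regions were called by edgeR with Benjamini-Hochberg adjustment, with a background of 0.0% of 19434. At an unadjusted p below 0.05, 1 channel region measured higher and 3 lower, against 1.35% and 2.98% of all regions. Both Isl1CKO libraries lay above both Control libraries in 18 of the 94 (19.1%, against 18.7%) and below them in 16 (17.0%, against 16.7%). The median channel log2 fold change was 0.13, and that of all regions was 0.05. DESeq2 called 147 regions (0.732%), 1 of which was a channel region, the Cacna1g promoter (adjusted p = 0.0412). In the authors' deposited table, which rests on other library sizes, 18 of 51 channel H3K27ac regions were called higher and 5 lower (27.8% and 9.25% of all regions). For H3K27me3, 9 of 96 channel regions were called higher and 26 lower there (9.17% and 29.6%). With sizes estimated from that table, edgeR's quasi-likelihood test called 3 H3K27ac and 0 H3K27me3 regions, 0 of them channel regions. In that test the sizes alone did not give the deposited number of calls, and what did was not tested. Those sizes, estimated from that table, moved the median of all regions to 0.60 for H3K27ac and -0.50 for H3K27me3, and the channel medians to 0.56 and -0.46. Directions are therefore given relative to the TMM scaling, in which levels are CPM over the counts in regions.

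Among the calcium channel alpha1 genes, Cacna1a (ENSMUSG00000034656), the P/Q-type pore, had the most H3K27ac regions, 12 in all, and no H3K27me3 region. Its strongest region lay in an intron (chromosome 8, 85076177 to 85078829) and measured 117 and 97.0 CPM in Isl1CKO and 110 and 132 CPM in Control, so the genotypes overlapped. Its strongest promoter region (chromosome 8, 85060573 to 85063278) measured 79.1 and 60.4 CPM in Isl1CKO and 71.0 and 92.6 CPM in Control, which overlapped too. A distal region 15348 bp upstream (chromosome 8, 85048453 to 85049920) measured 38.0 and 30.9 CPM in Isl1CKO and 3.09 and 13.7 CPM in Control. There both Isl1CKO libraries lay above both Control libraries, with a log2 fold change of 1.98 (SE 0.80, edgeR adjusted p = 0.850), 3.42 without Control replicate 2 and 1.31 without Control replicate 1. Summed over its 12 regions, Cacna1a H3K27ac was 586 and 445 CPM in Isl1CKO and 473 and 473 CPM in Control, with a log2 fold change of 0.12 (SE 0.17).

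Cacna1b (ENSMUSG00000004113), the N-type pore of nerve terminals, measured lower in Isl1CKO for both marks at 1 promoter. H3K27ac (chromosome 2, 24651784 to 24653489) was 35.0 and 40.8 CPM in Isl1CKO and 78.0 and 60.3 CPM in Control. H3K27me3 over the same start (chromosome 2, 24649957 to 24654562) was 21.8 and 37.4 CPM in Isl1CKO and 84.6 and 64.0 CPM in Control. Neither mark overlapped between genotypes. The log2 fold change was -0.86 (SE 0.47, edgeR adjusted p = 0.867) for H3K27ac, or -1.03 without Control replicate 2, and -1.32 (SE 0.50, edgeR adjusted p = 1) for H3K27me3. Its promoter is among the CG-rich sequences printed above.

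The T-type pores Cacna1g, Cacna1h and Cacna1i open at low voltage and serve in pacemaking. The Cacna1g (ENSMUSG00000020866) promoter lay in an H3K27me3 domain (chromosome 11, 94360767 to 94365740) of 249 and 237 CPM in Isl1CKO and 405 and 318 CPM in Control, with no overlap. Its log2 fold change was -0.57 (SE 0.20, edgeR adjusted p = 1). H3K27ac inside that domain (chromosome 11, 94363913 to 94364877) was 15.2 and 14.8 CPM in Isl1CKO and 27.8 and 31.8 CPM in Control, also with both Isl1CKO libraries below, at a log2 fold change of -0.99 (SE 0.69) and -0.89 without Control replicate 2. An adjoining H3K27ac promoter region of Cacna1g was too low to be tested, with 0 and 5 counts in Isl1CKO and 8 and 40 in Control.

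Cacna1h (ENSMUSG00000024112) had 7 H3K27ac regions, and the one that differed most lay in an intron 16091 bp past the start (chromosome 17, 25634583 to 25636666). It measured 74.6 and 71.7 CPM in Isl1CKO and 35.5 and 15.3 CPM in Control, with no overlap. The log2 fold change was 1.54 (SE 0.53, edgeR adjusted p = 0.846) and 1.03 without Control replicate 2. Without Control replicate 1, which leaves the Control library that stood apart, it was 2.24. The Cacna1h promoter overlapped between genotypes for H3K27ac, at 53.3 and 33.7 CPM in Isl1CKO and 74.1 and 35.6 CPM in Control. Its H3K27me3 domain (chromosome 17, 25648839 to 25656534) measured 270 and 264 CPM in Isl1CKO and 262 and 166.8 CPM in Control, so that both Isl1CKO libraries lay just above Control, at a log2 fold change of 0.32 (SE 0.25), 0.030 without Control replicate 2 and -0.28 with the sizes estimated from the authors' deposited table. Cacna1i had a wide H3K27me3 promoter domain of 9450 bp (chromosome 15, 80164633 to 80174082) that overlapped between genotypes, at 259 and 281 CPM in Isl1CKO and 279 and 307 CPM in Control. Of the 6 H3K27me3 regions of Cacna1i, 3 lay below Control in both Isl1CKO libraries and 0 above, against 16.7% and 18.7% of all regions. Their log2 fold changes ran from -2.52 to 1.64. Summed over the 6, the log2 fold change was -0.12 (SE 0.20). An intronic H3K27ac region of Cacna1i (chromosome 15, 80198817 to 80199992) held 3 and 4 counts in Isl1CKO and 19 and 48 in Control, a log2 fold change of -2.50 (SE 1.08, edgeR adjusted p = 0.850) and -2.02 without Control replicate 2.

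Cacna1e (ENSMUSG00000004110), the R-type pore known to support insulin secretion in mouse beta cells, had an H3K27me3 promoter and no H3K27ac promoter region. The H3K27me3 promoter region (chromosome 1, 154757750 to 154761746) measured 158 and 166 CPM in Isl1CKO and 143 and 135 CPM in Control, a difference of 0.22 on the log2 scale (SE 0.27). A stronger H3K27me3 region 154835 bp into the gene (chromosome 1, 154598236 to 154605412) overlapped between genotypes, at 449 and 303 CPM in Isl1CKO and 308 and 417 CPM in Control. Of its 14 H3K27me3 regions, 5 lay above Control in both Isl1CKO libraries and 1 below, against 18.7% and 16.7% of all regions. Log2 fold changes ran from -1.52 to 1.69. Summed over the 14, the log2 fold change was 0.25 (SE 0.14). Those above included intron regions at 61108 bp (76.1 and 43.4 CPM in Isl1CKO, 33.5 and 21.7 CPM in Control) and at 58442 bp (27.8 and 17.0 CPM in Isl1CKO, 5.29 and 9.99 CPM in Control). The log2 fold changes of these 2 were 1.12 (SE 0.55) and 1.53 (SE 0.89). The single H3K27ac region assigned to Cacna1e lay 70726 bp upstream (chromosome 1, 154830973 to 154832036) and held 3 and 0 counts in Isl1CKO against 20 and 35 in Control. The ratio of the summed counts scaled to library size was 0.0818, with an exact 95% counting interval of 0.0164 to 0.252, and 0.0934 without Control replicate 2. It was 0.259 without Isl1CKO replicate 2. Without Isl1CKO replicate 1, which held all 3 counts, the ratio was 0, with an exact 95% upper counting limit of 0.152. Cacna1f of the retina and Cacna1s of skeletal muscle had H3K27me3 promoters only, and that of Cacna1s overlapped between genotypes at 30.3 and 25.1 CPM in Isl1CKO and 35.2 and 10.6 CPM in Control.

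The alpha2delta genes held the highest H3K27ac log2 fold change of the tested channel regions and the widest H3K27me3 domain of the channel genes. At the promoter of Cacna2d3 (ENSMUSG00000021991), whose product is an extracellular accessory subunit, H3K27ac (chromosome 14, 29443484 to 29444690) held 16 and 53 counts in Isl1CKO and 7 and 12 in Control, or 24.3 and 37.2 CPM in Isl1CKO and 5.40 and 6.58 CPM in Control. The genotypes did not overlap, and the log2 fold change was 2.35 (SE 0.80, edgeR adjusted p = 0.846), or 2.50 without Control replicate 2. The surrounding H3K27me3 domain (chromosome 14, 29440544 to 29447036) overlapped between genotypes, at 272 and 247 CPM in Isl1CKO and 221 and 350 CPM in Control. Cacna2d1, which binds the drug gabapentin, had H3K27ac at its promoter (chromosome 5, 16138635 to 16140860) of 76.1 and 101 CPM in Isl1CKO and 91.9 and 30.7 CPM in Control. The genotypes overlapped, and the log2 fold change of 0.55 (SE 0.48) was -0.041 when Control replicate 2 was left out, and 1.54 when Control replicate 1 was. Cacna2d4 had a single H3K27ac region, in an exon, at 9.13 and 31.6 CPM in Isl1CKO and 12.4 and 12.6 CPM in Control, which overlapped too.

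Cacna2d2 (ENSMUSG00000010066), another gabapentin-binding subunit, lay in the strongest H3K27me3 of the set. A domain of 24718 bp upstream of it (chromosome 9, 107244437 to 107269154) measured 1008 and 962 CPM in Isl1CKO and 864 and 819 CPM in Control, with a log2 fold change of 0.23 (SE 0.13, edgeR adjusted p = 1), or -0.33 with the sizes estimated from the authors' deposited table. Its promoter domain (chromosome 9, 107272996 to 107280868) measured 493 and 556 CPM in Isl1CKO and 558 and 526 CPM in Control and overlapped. A first-intron domain (chromosome 9, 107281249 to 107290512) measured 153 and 197 CPM in Isl1CKO and 128 and 91.0 CPM in Control, with no overlap and a log2 fold change of 0.68 (SE 0.30, edgeR adjusted p = 1). The H3K27ac promoter region of Cacna2d2 was too low to be tested and held 1 and 2 counts in Isl1CKO against 9 and 47 in Control, a scaled ratio of 0.0803 (exact 95% counting interval 0.0161 to 0.247). Most of its counts came from Control replicate 2, without which the ratio was 0.208 (0.0361 to 0.832).

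The beta subunits bind the pore from inside the cell. Cacnb3 (ENSMUSG00000003352), whose loss in mice is known to raise insulin secretion, had 6 H3K27ac regions. Of these, 5 measured above Control in both Isl1CKO libraries, as did 18.1% of all H3K27ac regions. The strongest, annotated to the 3′ UTR (chromosome 15, 98540914 to 98545760), measured 228 and 162 CPM in Isl1CKO and 127 and 84.4 CPM in Control. Its log2 fold change was 0.88 (SE 0.33, edgeR adjusted p = 0.850) and 0.60 without Control replicate 2. Without Control replicate 1, which leaves the Control library that stood apart, the log2 fold change was 1.20. The Cacnb3 promoter (chromosome 15, 98529017 to 98531522) measured 88.2 and 73.8 CPM in Isl1CKO and 59.4 and 40.0 CPM in Control, a log2 fold change of 0.70 (SE 0.43). The next region, annotated to the 5′ UTR, measured 123 and 112 CPM in Isl1CKO and 104 and 54.3 CPM in Control. Without Control replicate 2 the log2 fold changes of the promoter and the 5′ UTR region were 0.43 and 0.17. An intronic region (chromosome 15, 98534882 to 98536106) measured 16.7 and 33.0 CPM in Isl1CKO and 13.9 and 2.19 CPM in Control. Its log2 fold change of 1.67 (SE 0.94, edgeR adjusted p = 0.877) was 0.87 without Control replicate 2, 3.48 without Control replicate 1 and 1.06 without Isl1CKO replicate 2. Summed over its 6 regions, with the one that runs past the gene end, Cacnb3 H3K27ac was 494.8 and 447.5 CPM in Isl1CKO and 345.0 and 232.0 CPM in Control. The log2 fold change of that sum was 0.71 (SE 0.20, edgeR adjusted p = 0.378 over 15997 genes), or 0.45 without Control replicate 2. Its regions share the gene and are not replicates of each other.

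Cacnb4 (ENSMUSG00000017412) measured lower for H3K27ac in Isl1CKO. At its promoter (chromosome 2, 52565385 to 52566582) the libraries had 3 and 10 counts in Isl1CKO and 31 and 61 in Control, or 4.56 and 7.03 CPM in Isl1CKO and 23.9 and 33.4 CPM in Control. There was no overlap, and the log2 fold change was -2.25 (SE 0.83, edgeR adjusted p = 0.850), or -1.98 without Control replicate 2. H3K27me3 over the same start overlapped between genotypes, at 177 and 105 CPM in Isl1CKO and 171 and 84.6 CPM in Control. Cacnb2, the beta subunit known to pair with L-type pores, had no listed region of either mark.

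**Figure D2:**
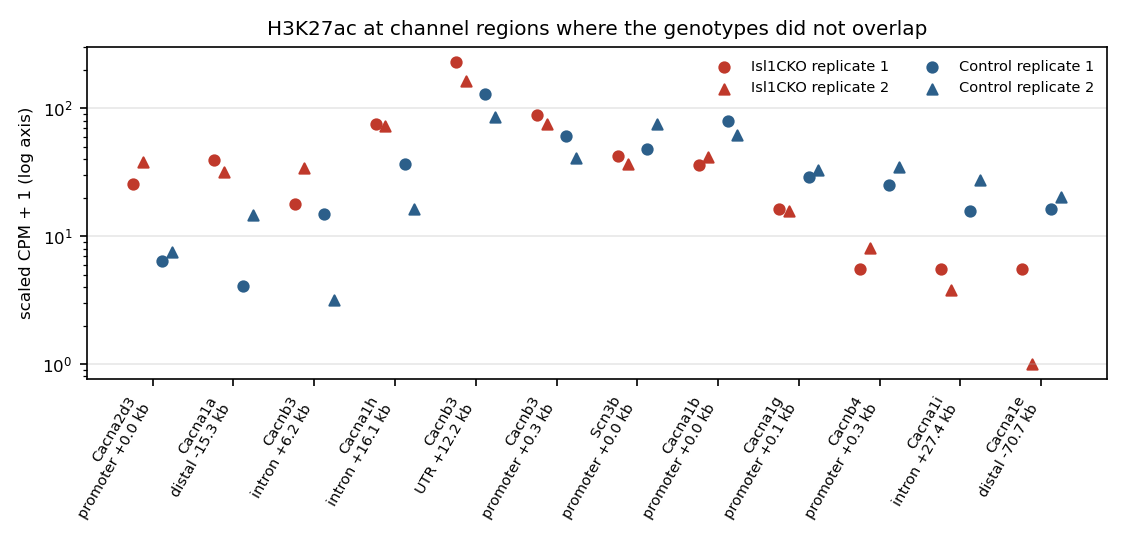
H3K27ac in scaled CPM plus 1 (log axis) in each of the 2 Isl1CKO (red) and 2 Control (blue) libraries, at the channel regions with the smallest unadjusted p in which the genotypes did not overlap. Circles are replicate 1 and triangles replicate 2. Regions of Cacna2d3, Cacna1a, Cacna1h and Cacnb3 stand on the left with Isl1CKO above Control, and Cacna1e, Cacna1i and Cacnb4 on the right with Isl1CKO below.

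The gamma genes, most of which are named after the muscle channel subunit Cacng1 but encode partners of AMPA-type glutamate receptors, had 16 H3K27me3 regions next to 6 genes and 2 H3K27ac regions next to Cacng1. Their H3K27me3 log2 fold changes ran from -2.23 to 2.09 with a median of 0.14. The Cacng3 promoter (chromosome 7, 122269219 to 122271365) was the densest of them, at 98.3 and 109 CPM in Isl1CKO and 107 and 84.0 CPM in Control, an overlap. The Cacng5 promoter (chromosome 11, 107801436 to 107808580) measured 98.3 and 81.6 CPM in Isl1CKO and 103 and 159 CPM in Control, with no overlap and a log2 fold change of -0.55 (SE 0.34). The region with the largest difference, assigned to Cacng2 (stargazin) by distance and lying in an intron of another annotated gene (chromosome 15, 78007679 to 78008290), held 10 and 7 counts in Isl1CKO and 15 and 36 in Control. Its log2 fold change was -2.23 (SE 1.13, edgeR adjusted p = 1).

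Among the sodium channel alpha genes, Scn8a (ENSMUSG00000023033), a main pore of brain neurons, showed the lowest unadjusted p for H3K27me3 of all channel regions in edgeR. H3K27me3 just past its start (chromosome 15, 100769283 to 100772232) held 29 and 47 counts in Isl1CKO and 56 and 99 in Control, or 12.4 and 20.0 CPM in Isl1CKO and 49.3 and 58.2 CPM in Control. The genotypes did not overlap, and the log2 fold change was -1.73 (SE 0.59, edgeR adjusted p = 1). H3K27ac at the same promoter (chromosome 15, 100768752 to 100770120) measured 42.6 and 54.1 CPM in Isl1CKO and 36.3 and 24.7 CPM in Control, also with no overlap and in the other direction. Its log2 fold change was 0.68 (SE 0.54, edgeR adjusted p = 0.913), or 0.42 without Control replicate 2.

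Scn9a (ENSMUSG00000075316) and Scn3a are the sodium channel pores known to carry most of the current in mouse beta and alpha cells, and Scn9a is also a channel of sensory neurons. The Scn9a promoter overlapped between genotypes for H3K27ac (chromosome 2, 66464685 to 66465324), at 9.13 and 20.4 CPM in Isl1CKO and 13.9 and 31.2 CPM in Control. It overlapped for H3K27me3 too (chromosome 2, 66464737 to 66465538), at 10.7 and 8.08 CPM in Isl1CKO and 19.4 and 2.94 CPM in Control. The log2 fold change was -0.58 (SE 0.78) for H3K27ac, or 0.13 without Control replicate 2 and -1.31 without Isl1CKO replicate 2. It was -0.23 (SE 1.19) for H3K27me3, or 1.66 without Control replicate 1 and -1.04 without Control replicate 2, so the direction of neither is fixed by these libraries. Scn3a had no region of either mark, and Scn2a had a single H3K27ac region, in an intron, with 0 and 14 counts in Isl1CKO and 9 and 34 in Control. The promoter region of Scn4a, the skeletal muscle pore, held 2 and 7 counts in Isl1CKO and 3 and 38 in Control, most of them in Control replicate 2, and was too low to be tested.

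Scn10a and Scn11a, pores of sensory neurons, lie on chromosome 9 and had 14 and 2 H3K27me3 regions. Of the 14 Scn10a regions, 4 lay above Control in both Isl1CKO libraries and 1 below, against 18.7% and 16.7% of all regions. The log2 fold change was negative in 6 of the 14. Summed over the 14, Scn10a H3K27me3 was 254 and 221 CPM in Isl1CKO and 170 and 212 CPM in Control. The log2 fold change of that sum was 0.31 (SE 0.26). Distal regions upstream of Scn10a held few counts, 27 and 20 in Isl1CKO against 0 and 4 in Control at 4524 bp and 21 and 37 in Isl1CKO against 4 and 1 in Control at 17624 bp. Their scaled ratios were 7.10 (exact 95% counting interval 2.60 to 27.1) and 7.01 (2.84 to 22.4). Single Control libraries moved both ratios. The nearer region had a ratio of 4.26 without Control replicate 1. Without Control replicate 2, which held all 4 Control counts, the ratio had no finite value, and its exact 95% lower counting limit was 2.96. The farther region had a ratio of 3.51 (1.30 to 13.3) without Control replicate 2 and 21.04 (3.63 to 845) without Control replicate 1. Scn1a, a pore of inhibitory neurons and the CG-poor promoter printed above, overlapped between genotypes at 46.1 and 78.2 CPM in Isl1CKO and 47.6 and 81.1 CPM in Control.

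Among the sodium channel beta genes, Scn3b had an H3K27ac promoter and no H3K27me3 promoter region. Scn3b H3K27ac (chromosome 9, 40179554 to 40181045) measured 41.1 and 35.8 CPM in Isl1CKO and 47.1 and 74.5 CPM in Control, with both Isl1CKO libraries below. Its log2 fold change was -0.67 (SE 0.49, edgeR adjusted p = 0.904), or -0.31 without Control replicate 2, and 0.055 with the sizes estimated from the authors' deposited table. Scn4b, with H3K27me3 in its untranslated region rather than at its promoter, measured 116 and 170 CPM in Isl1CKO and 137 and 147 CPM in Control at its main region (chromosome 9, 45056109 to 45062025).

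**Figure D3:**
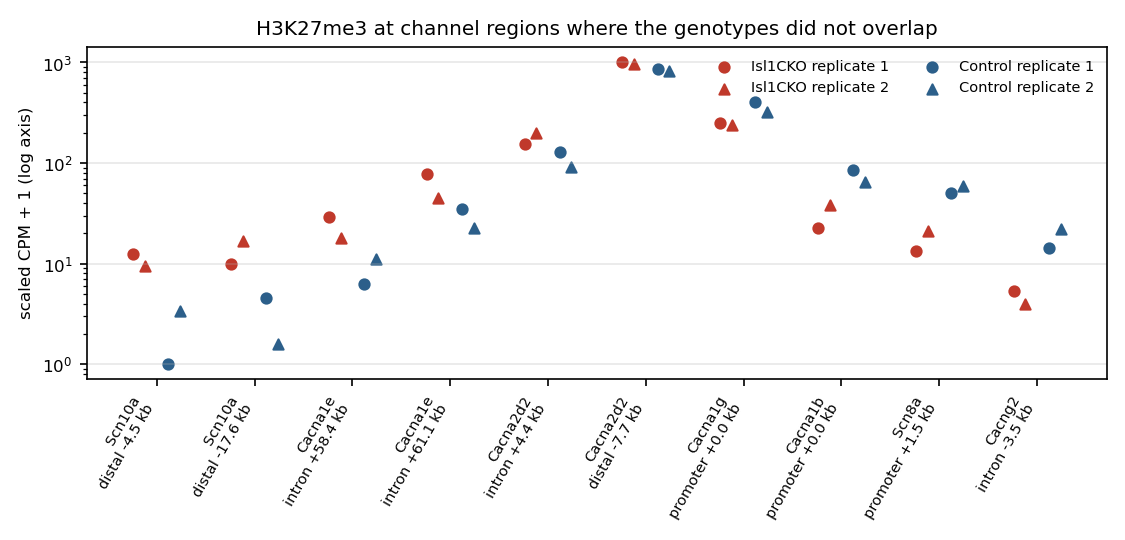
H3K27me3 in scaled CPM plus 1 (log axis) in each of the 2 Isl1CKO (red) and 2 Control (blue) libraries, at channel regions among those with the smallest unadjusted p in which the genotypes did not overlap. Circles are replicate 1 and triangles replicate 2. Scn10a, Cacna1e and Cacna2d2 regions stand on the left with Isl1CKO above, and the Cacna1g, Cacna1b and Scn8a promoters on the right with Isl1CKO below.

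At the promoters named above with both marks, the main regions of the marks shared bases at all but Cacnb3. Of the 51 channel H3K27ac regions, 13 overlapped an H3K27me3 region (25.5%), against 6.86% of all H3K27ac regions. At Cacna1b, Cacna1g, Cacna1h, Cacna2d2, Cacna2d3 and Cacnb4 the whole main H3K27ac region lay inside the main H3K27me3 region, at Scn9a 91.9% of it, at Scn8a 61.2% of it and at Cacnb3 none of it. In sorted cells of several endocrine types, both marks on the same nucleosome and the marks in different cells cannot be told apart. Among these promoters, Cacna1b and Cacna1g measured lower in Isl1CKO for both without overlap, and Scn8a measured higher for H3K27ac and lower for H3K27me3 without overlap. At Cacna2d3, Cacnb3 and Cacnb4 the genotypes separated for H3K27ac alone, at Cacna1h for H3K27me3 alone by the small margin given above, and at Scn9a for neither. Such separation is common with 2 libraries per genotype. Of all H3K27ac regions, 18.1% lay above and 19.4% below without overlap, and of all H3K27me3 regions 18.7% and 16.7%. At Cacna2d2 the H3K27ac region, too low to be tested, lay below in both Isl1CKO libraries, and H3K27me3 overlapped.

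**Figure D4:**
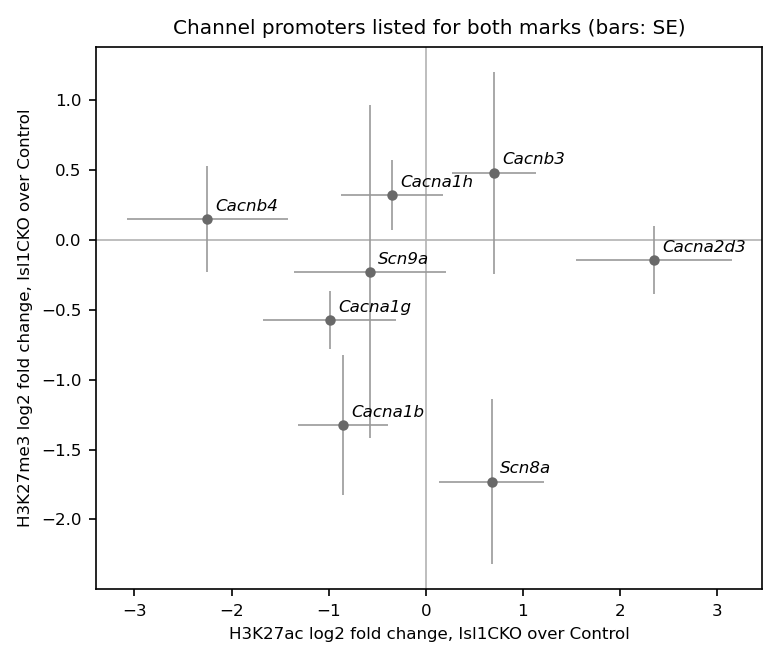
Log2 fold change of Isl1CKO over Control for H3K27ac (horizontal) and H3K27me3 (vertical) at 8 channel promoters tested for both marks, with bars of 1 SE from edgeR and 2 libraries per genotype and mark. Scn8a stands in the lower right, Cacna1b and Cacna1g in the lower left, and Cacna2d3 and Cacnb4 at the 2 ends of the H3K27ac axis.

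ISL1 values in Control cells averaged 1.03 over the channel windows at E14.5, against 0.746 over all windows, and 0.128 at P9, against 0.101, with a median of 0 in each. Their unit is not given in the sources used here, and the E14.5 column sums to 16668 over all windows and the P9 column to 2255, so the stages are given side by side and not compared. Windows measured 6000 bp or more around the annotated start. At E14.5, 19 of 39 channel windows had a value of at least 1 (48.7%, against 37.7% of all windows) and 12 a value of at least 2 (30.8%, against 18.3%). At P9, 5 of 39 had a value of at least 1 (12.8%, against 8.86%). Cacna1g and Cacna2d2 had the highest E14.5 value, 5, followed by Scn3b with 4 and Scn8a with 3, against a highest value of 133 in the whole table. At P9, Cacnb2, Cacnb3, Cacna1s, Cacna1i and Scn4b had a value of 1 and all other channel windows 0. Of these, Cacna1i was at 0 at E14.5, and 19 channel windows were at 0 at both stages, Cacna1c, Cacna1d, Cacna1h and Cacna2d3 among them. Of the 10 genes with both marks at the promoter, 6 had an E14.5 value of at least 1, against 67.0% of all genes with both marks. Of the 13 with H3K27me3 alone, 5 did, against 49.7% of all genes in that class. With 1 column per stage there was no replicate and no test.

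**Figure D5:**
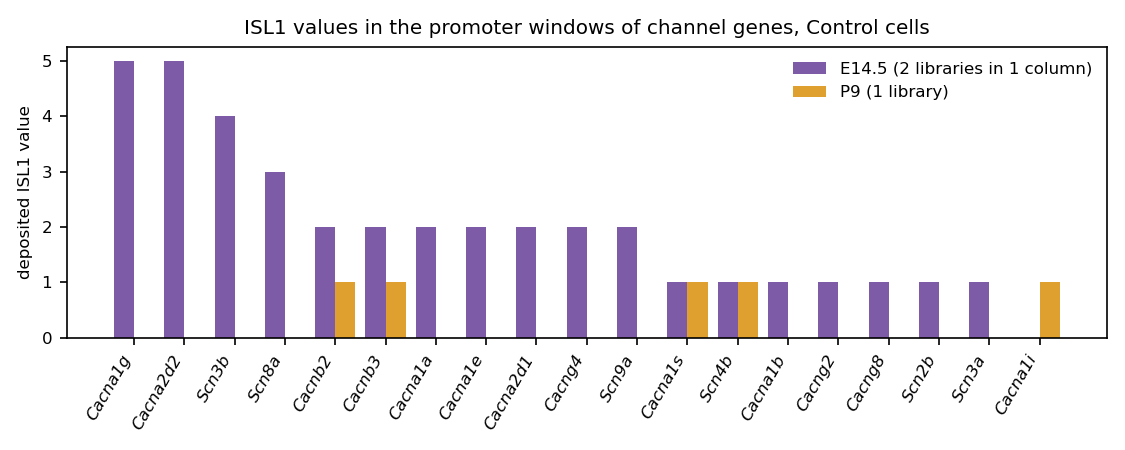
Deposited ISL1 values (vertical axis, unit not given in the sources used here) in the promoter windows of 19 channel genes with a value above 0, in Control cells at E14.5 (purple, 2 libraries in 1 column) and P9 (orange, 1 library). Cacna1g and Cacna2d2 reach 5 at E14.5, and no window passes 1 at P9.

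The RefSeq promoter windows were searched on both strands for CTAATG and CTAATT, letters of the kind that LIM-homeodomain factors such as ISL1 bind, which differ in their last base and so never count for the same stretch on 1 strand. CTAATG was in 3 of 39 channel windows (7.69%, against 7.36% of all windows) and CTAATT in 4 (10.3%, against 8.21%). Scn9a and Scn2a are printed as 2 windows that hold them, 250 bases before the start on the gene's strand, with matches in capitals as read on that strand, where CATTAG and AATTAG are the reverse complements. The match in Scn9a (chr2:66634963-66635212, minus strand) begins 97 bases before the start. In Scn2a (chr2:65620519-65620768, plus strand) the nearer of the 2 matches begins 166 bases before the start.
Scn9a: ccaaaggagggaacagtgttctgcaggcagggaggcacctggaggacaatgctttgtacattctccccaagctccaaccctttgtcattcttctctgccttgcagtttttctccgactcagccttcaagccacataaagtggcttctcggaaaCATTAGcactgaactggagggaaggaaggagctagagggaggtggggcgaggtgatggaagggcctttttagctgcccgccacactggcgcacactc
Scn2a: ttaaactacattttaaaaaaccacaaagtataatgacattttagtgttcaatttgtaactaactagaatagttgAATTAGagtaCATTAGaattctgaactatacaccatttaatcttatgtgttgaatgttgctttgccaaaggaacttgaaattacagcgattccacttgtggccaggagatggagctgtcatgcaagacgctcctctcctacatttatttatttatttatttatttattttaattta
The ISL1 value of Scn9a was 2 at E14.5 and 0 at P9, and that of Scn2a was 0 at both stages. CAGCACC and GGACAG, which resemble parts of the element bound by REST, a repressor of neuronal channel genes in other tissues, were in 0 of 39 windows (against 7.14%) and 6 of 39 (15.4%, against 22.2%). A match is a run of letters and not a measured site, and a window without one says nothing of the factor.

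The partners of these channels in stimulus and secretion were mostly listed for H3K27ac. A list of 31 genes held the potassium channel subunits that set the beta cell membrane potential, calcium stores and pumps, and the proteins that fuse granules with the membrane. Of these, 28 had an H3K27ac region (90.3%, against 44.4% of all genes) and 23 an H3K27ac promoter region (74.2%, against 38.6%), while 7 had an H3K27me3 promoter region (22.6%, against 13.8%). None of its 121 tested H3K27ac regions was called by edgeR, 34 lay above in both Isl1CKO libraries (28.1%, against 18.1% of all regions) and 29 below (23.97%, against 19.4%), and the median log2 fold change was 0.04. None of its 17 H3K27me3 regions was called, 2 lay above (11.8%, against 18.7%) and 0 below (against 16.7%), and the median log2 fold change was 0.23.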

How the data were processed

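For the 4 H3K27ac and 4 H3K27me3 libraries, the deposited tables hold raw counts by region, with the authors' log2 fold change and log2 mean abundance, a likelihood ratio score and p-values per region. The deposited ISL1 values are whole numbers per promoter window, used as a score because no header states their unit. Bowtie2 2.3.5.1, Picard 2.27.4, MACS2 2.2.6, ChIPseeker 1.38.0, edgeR 4.0.16 and GRCm39 are named in the submitters' processing notes. Every column of sample values was used.

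Repeated rows (108 and 90) were dropped. Chromosome numbers of the histone tables followed the alphabetical order of names and were relabelled, after which 100% of genes shared with the ISL1 table matched. Counts were fitted with edgeR 4.0.16 in R 4.3.3 (filterByExpr, TMM, quasi-likelihood test, Benjamini-Hochberg over all regions of a mark, called at an adjusted p below 0.05), Isl1CKO over Control, 2 libraries each, tested on simulated data first. Levels are TMM-scaled CPM, and ratios of summed counts carry exact 95% intervals that cover counting error only. Alternatives were DESeq2 1.42.0, other library sizes, no filter, a replicate block and leaving out each library.

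Values per library are given for up to 6 regions per mark and direction with the smallest unadjusted p and no overlap, the main promoters of 14 channel genes, the 4 strongest regions per mark, the 3 widest H3K27me3 regions and the highest ISL1 windows, except for channel genes that are in the counts but not reported here by name. Other regions named (of Cacna1c, Cacna1e, Cacna1f, Cacna1g, Cacna1s, Cacna2d2, Cacna2d4, Cacnb4, Cacng3, Cacng5, Scn1a, Scn2a, Scn4a and Scn4b) were chosen after their values were seen. Members and lists were chosen with earlier results of these data known. Sums over the regions of a gene, and count ratios with a library left out, were added after seeing the data.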

Additional observations from a re-analysis of the deposited data

How the results depend on the processing

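Over the 9 alternatives run per mark, the 36 named regions kept their direction and their side of the threshold in 302 of the fits. The sign changed in 19, and 23 of the 36 never changed sign. Many of the 36 were named because the genotypes did not overlap, so leaving out a library could hardly change the sign of those. With sizes estimated from the authors' table, 3 H3K27ac regions were called, the channel medians were 0.56 (H3K27ac) and -0.46 (H3K27me3), and the sign changed at the H3K27ac regions of the Cacna1a promoter (0.51), Cacna1a intron (0.54), Cacna1h promoter (0.33) and Scn3b promoter (0.055), and at the H3K27me3 regions of Cacna1e (-0.46), Cacna1h (-0.28), Cacna2d2 upstream (-0.33) and Cacnb3 (-0.088). That setting moves the median of all regions. With library totals the Cacna2d2 H3K27me3 promoter was 0.069 and the H3K27me3 channel median 0.24. DESeq2 called 29 H3K27ac and 147 H3K27me3 regions, with 0 and 1 channel regions, and the cause was not tested. Leaving out 1 library in turn gave 0 to 900 H3K27ac regions called, 0 to 2 channel regions and 0 to 3 channel genes by summed regions. H3K27ac channel medians were -0.18 to 0.15. The highest of these counts came without Control replicate 1, which leaves only the Control library that stood apart. They are therefore not read as differences of the channel genes. For the 3 genes, the summed log2 fold changes in that fit were 1.02 (Cacnb3), 1.53 (Cacna2d1) and -1.88 (Scn4a). Without Control replicate 2 they were 0.45, -0.019 and 0.44. For H3K27me3, leaving out 1 library gave 0 regions called and channel medians of -0.013 to 0.13. Leaving out 1 library also changed the sign of H3K27ac at the promoters of Cacna1h (range -0.81 to 0.26), Cacna2d1 (-0.041 to 1.54) and Scn9a (-1.31 to 0.13). It did so for H3K27me3 at Cacna1e (-0.27 to 0.31) and at the promoters of Cacna2d2 (-0.14 to 0.029), Cacna2d3 (-0.43 to 0.23), Cacnb3 (-0.020 to 0.85) and Scn9a (-1.04 to 1.66). Replicate numbers did not pair the libraries (correlations of deviations 0.0504 for H3K27ac and -0.0142 for H3K27me3). With the replicate number as a block, 0 regions were called for either mark, the channel medians were -0.17 and 0.077, and Scn9a H3K27me3 was 0.23. Counting promoters within 1 kb left 12 channel genes with H3K27ac (30.8%, against 36.8% of all genes) and 18 with H3K27me3 (46.2%, against 12.3%). ISL1 windows of at least 2 numbered 12 at E14.5 (30.8%, against 18.3% of all windows) and 0 at P9 (against 0.927%), and of at least 5, 2 at E14.5 (5.13%, against 2.06%) and 0 at P9 (against 0.0358%). With 2 libraries per genotype, a count of 0 in a library allowed up to 4.56 CPM for H3K27ac and 2.64 CPM for H3K27me3.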
